A study of Mus musculus with 18 samples.

Results

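Open chromatin was mapped by ATAC-seq, in which a transposase cuts and tags accessible DNA, in sorted epithelial cells from lungs of adult mice given a G9a inhibitor (G9ai) or vehicle. The regions described here were listed with vehicle and not with G9ai in at least 2 of the 3 sorted populations. A region was vehicle-only in a population when every vehicle peak list of that population held a peak there and no G9ai list did, and G9ai-only in the opposite case. Overlapping vehicle-only regions of different populations (1 bp or more) were joined, and a joined region was dropped when it overlapped a G9ai-only region of any population. This left 1687 shared vehicle-only regions of 33312 merged regions in the series, or 5.06%. These regions were chosen by the presence and absence of listed peaks, so their absence from the G9ai lists is their definition and not a result.

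All mice were of the strain labelled c57/bl6 and 6-12 weeks old, and the cells were gated as CD31/45- Epcam+ Sca-1+. The compound, dose and duration of the inhibitor and the sex of the mice are not in the labels. G9ai mice gave CD24neg, CD24low and CD24high cells, each with peak lists of replicates 2 and 3, and vehicle mice gave the same populations, with lists of replicates 2 and 3 for CD24low and of replicate 3 alone for CD24neg and CD24high. Each arm had 3 mice and each library 10000 cells, and 8 of the 18 samples were not analysed here. Whether a library came from 1 mouse is not stated library by library.

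G9a, encoded by Ehmt2, works with its partner GLP, encoded by Ehmt1, to place methyl groups on lysine 9 of histone H3, a mark of repressed chromatin. Accessible chromatin marks promoters, enhancers and insulator sites, and many distal sites differ between cell types. In the lung, Sca-1 and CD24 are surface proteins used to separate airway and alveolar epithelial cells, with CD24 high on multiciliated cells.

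The deposited lists held 2798 to 7379 peaks per G9ai list and 2552 to 12985 per vehicle list. They had the form of selected subsets of each library's peaks. Of the CD24low vehicle lists, with 2558 and 2552 peaks, 2527 peak pairs overlapped, while only 86, 18 and 105 regions of CD24neg, CD24low and CD24high had peaks of both arms. A site open in both arms can thus be missing from every list, and a vehicle-only region is one that was listed for vehicle alone, not one shown to be closed with the inhibitor. The label of these regions, lost with inhibitor, holds only in that sense. Peak names carry a library code, and the replicate 3 vehicle lists of all 3 populations carried the same code, while vehicle replicate 2 of CD24low carried another. No code of a G9ai list occurred in a vehicle list, so arm and code cannot be told apart. The labels do not say what the code stands for. Members made of CD24neg and CD24high alone, 1125 of 1687, therefore rest on lists with 1 code, and the 562 members with a CD24low region on lists with 2 codes. No vehicle replicate checks the CD24neg and CD24high side, and no test between arms was made.

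The share of regions that were G9ai-only and vehicle-only differed widely between populations. In CD24neg, 31% of 12957 regions were G9ai-only and 67.8% vehicle-only. In CD24low, 71.9% of 9969 regions were G9ai-only and 25.1% vehicle-only. In CD24high, 17.1% of 15687 regions were G9ai-only and 82.1% vehicle-only. Since the longer vehicle lists belonged to CD24neg and CD24high, those lists had the most regions to share.

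Sequences of 12 promoters show where the strongest and most widely shared members lay against gene starts. The windows and letters are from RefSeq on GRCm38.p6, the assembly of mm10, and each runs from 250 bases before to 50 bases after an annotated start, 5′ to 3′ on the gene's strand. Capitals mark the bases inside the shared vehicle-only region. For Eif2s3y they mark the member at chrY:1010509-1010613 alone. The first bases of its window, up to position 1010365, lie in another member (chrY:1010228-1010365) and are in small letters. The first 6 were touched by members that were vehicle-only in all 3 populations, and 1 more such window on X, of a gene with a Gm symbol that overlaps the Gripap1 window, is not shown.
Psmd1 (chr1:86064369-86064668, plus strand): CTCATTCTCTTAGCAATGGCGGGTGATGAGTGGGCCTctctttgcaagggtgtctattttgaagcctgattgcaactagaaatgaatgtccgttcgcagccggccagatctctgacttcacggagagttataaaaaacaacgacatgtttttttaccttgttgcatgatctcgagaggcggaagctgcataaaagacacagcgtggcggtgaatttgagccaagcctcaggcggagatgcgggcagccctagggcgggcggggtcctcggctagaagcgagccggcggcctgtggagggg
Kat2a (chr11:100712418-100712717, minus strand): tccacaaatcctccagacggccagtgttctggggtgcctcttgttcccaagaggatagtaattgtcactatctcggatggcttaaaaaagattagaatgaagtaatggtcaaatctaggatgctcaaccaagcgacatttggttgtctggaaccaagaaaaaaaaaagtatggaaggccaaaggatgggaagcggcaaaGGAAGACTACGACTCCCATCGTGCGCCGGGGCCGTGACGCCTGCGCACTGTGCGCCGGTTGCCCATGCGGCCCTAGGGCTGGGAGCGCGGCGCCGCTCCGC
Pcif1 (chr2:164879118-164879417, plus strand): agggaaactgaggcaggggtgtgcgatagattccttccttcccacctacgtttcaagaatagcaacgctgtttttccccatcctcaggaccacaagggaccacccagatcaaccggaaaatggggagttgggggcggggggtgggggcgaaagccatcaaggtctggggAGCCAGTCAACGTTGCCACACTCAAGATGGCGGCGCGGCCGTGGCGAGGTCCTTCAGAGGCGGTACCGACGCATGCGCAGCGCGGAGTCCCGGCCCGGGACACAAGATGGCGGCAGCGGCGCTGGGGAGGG
Srsf4 (chr4:131873810-131874109, plus strand): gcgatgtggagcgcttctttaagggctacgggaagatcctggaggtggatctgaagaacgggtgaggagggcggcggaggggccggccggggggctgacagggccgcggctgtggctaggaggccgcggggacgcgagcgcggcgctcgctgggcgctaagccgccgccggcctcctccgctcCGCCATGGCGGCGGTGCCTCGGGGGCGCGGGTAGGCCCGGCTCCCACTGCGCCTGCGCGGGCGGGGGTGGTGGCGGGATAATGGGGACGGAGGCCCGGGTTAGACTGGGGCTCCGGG
Gripap1 (chrX:7789743-7790042, plus strand): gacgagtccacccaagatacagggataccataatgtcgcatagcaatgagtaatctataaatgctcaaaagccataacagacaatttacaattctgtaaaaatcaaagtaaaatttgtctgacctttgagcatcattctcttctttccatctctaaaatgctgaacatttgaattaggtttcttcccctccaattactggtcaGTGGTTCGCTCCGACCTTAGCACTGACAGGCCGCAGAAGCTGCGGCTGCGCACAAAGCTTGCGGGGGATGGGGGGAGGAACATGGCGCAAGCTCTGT
Zdhhc15 (chrX:104671015-104671314, minus strand): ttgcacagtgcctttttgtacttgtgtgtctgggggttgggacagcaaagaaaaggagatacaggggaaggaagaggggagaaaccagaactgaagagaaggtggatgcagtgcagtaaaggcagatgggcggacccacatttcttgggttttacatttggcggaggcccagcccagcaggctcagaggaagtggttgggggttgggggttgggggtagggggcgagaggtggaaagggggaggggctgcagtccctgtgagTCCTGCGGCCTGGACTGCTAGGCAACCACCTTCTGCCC
Psmd1 encodes a subunit of the proteasome's regulatory particle, Kat2a a histone acetyltransferase, Pcif1 the methyltransferase of the mRNA cap's adenosine, Srsf4 a splicing factor and Zdhhc15 a palmitoyltransferase. The regions at Kat2a, Pcif1, Srsf4 and Gripap1 covered the start site. The one at Psmd1 ended upstream of it, and the one at Zdhhc15 lay downstream of it, inside the gene.

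The next 3 windows belong to the promoter members with the highest scores of each pair of populations.
Rem2 (chr14:54475850-54476149, plus strand): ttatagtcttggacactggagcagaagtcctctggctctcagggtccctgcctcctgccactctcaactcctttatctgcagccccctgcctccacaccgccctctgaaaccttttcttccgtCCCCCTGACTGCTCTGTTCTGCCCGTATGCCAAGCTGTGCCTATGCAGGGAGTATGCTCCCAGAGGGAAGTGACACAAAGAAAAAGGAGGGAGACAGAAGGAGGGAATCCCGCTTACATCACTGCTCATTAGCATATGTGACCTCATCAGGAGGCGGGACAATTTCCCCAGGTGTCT
Hacd3 (chr9:65021668-65021967, minus strand): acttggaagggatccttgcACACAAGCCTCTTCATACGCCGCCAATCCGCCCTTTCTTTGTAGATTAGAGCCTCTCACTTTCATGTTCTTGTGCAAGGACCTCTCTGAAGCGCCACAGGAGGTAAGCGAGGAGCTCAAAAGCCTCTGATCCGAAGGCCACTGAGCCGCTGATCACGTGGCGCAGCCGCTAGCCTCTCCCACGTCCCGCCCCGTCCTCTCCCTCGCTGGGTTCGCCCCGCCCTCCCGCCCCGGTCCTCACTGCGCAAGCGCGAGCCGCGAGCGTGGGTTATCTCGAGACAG
Pfn2 (chr3:57847708-57848007, minus strand): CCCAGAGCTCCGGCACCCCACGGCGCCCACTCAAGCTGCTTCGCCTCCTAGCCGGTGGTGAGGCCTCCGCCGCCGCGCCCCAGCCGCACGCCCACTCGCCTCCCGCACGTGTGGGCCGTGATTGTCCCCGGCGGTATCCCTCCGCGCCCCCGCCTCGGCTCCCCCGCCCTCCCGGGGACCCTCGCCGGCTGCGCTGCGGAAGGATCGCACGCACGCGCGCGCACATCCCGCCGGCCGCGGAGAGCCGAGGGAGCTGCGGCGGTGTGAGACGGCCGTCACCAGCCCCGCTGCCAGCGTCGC
Rem2, a GTP-binding protein gene, had its region in CD24neg and CD24high. Hacd3, an enzyme of very long chain fatty acid synthesis, had it in CD24low and CD24high. Pfn2, which encodes the actin-binding protein profilin 2, had it in CD24neg and CD24low, and there the region spanned the whole window.

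The last 3 windows are those of genes on the Y chromosome, shown because the Y was the chromosome with the highest proportion of shared regions. They were chosen after their values were seen.
Uty (chrY:1245710-1246009, minus strand): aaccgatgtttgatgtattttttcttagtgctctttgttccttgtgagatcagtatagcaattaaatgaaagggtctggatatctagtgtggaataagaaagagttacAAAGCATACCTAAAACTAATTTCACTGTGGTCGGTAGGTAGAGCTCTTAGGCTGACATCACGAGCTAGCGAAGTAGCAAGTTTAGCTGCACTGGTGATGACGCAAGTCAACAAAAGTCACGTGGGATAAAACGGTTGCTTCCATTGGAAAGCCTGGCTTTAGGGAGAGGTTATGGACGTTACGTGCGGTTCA
Ddx3y (chrY:1286564-1286863, minus strand): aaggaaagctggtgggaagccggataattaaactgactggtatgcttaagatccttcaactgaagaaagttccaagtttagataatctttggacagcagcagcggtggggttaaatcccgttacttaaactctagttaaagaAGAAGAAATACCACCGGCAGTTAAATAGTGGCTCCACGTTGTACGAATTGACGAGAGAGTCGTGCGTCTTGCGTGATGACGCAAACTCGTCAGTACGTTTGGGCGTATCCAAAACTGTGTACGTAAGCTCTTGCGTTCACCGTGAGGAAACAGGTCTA
Eif2s3y (chrY:1010345-1010644, plus strand): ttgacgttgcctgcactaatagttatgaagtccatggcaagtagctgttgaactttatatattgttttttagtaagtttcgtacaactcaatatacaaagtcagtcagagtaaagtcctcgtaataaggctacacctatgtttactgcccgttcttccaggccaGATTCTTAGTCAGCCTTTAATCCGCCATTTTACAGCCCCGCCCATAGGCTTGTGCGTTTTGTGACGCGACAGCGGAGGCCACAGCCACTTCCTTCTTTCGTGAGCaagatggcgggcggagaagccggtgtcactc
Uty encodes a homologue of the histone H3 lysine 27 demethylase Utx, Ddx3y an RNA helicase and Eif2s3y a subunit of a translation initiation factor. All are broadly expressed in male mice.

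The members fell mostly in one pair of populations. CD24neg and CD24high alone shared 1125 members (66.7%, exact binomial 95% interval 64.4% to 68.9%). CD24low and CD24high shared 325 (19.3%, 17.4% to 21.2%), CD24neg and CD24low 176 (10.4%, 9.01% to 12.0%), and all 3 populations 61 (3.62%, 2.78% to 4.62%). These intervals cover counting error only. By list, members had peaks in 1363 cases in CD24neg vehicle replicate 3, in 562 in each CD24low vehicle list and in 1512 in CD24high vehicle replicate 3.

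**Figure D1:**
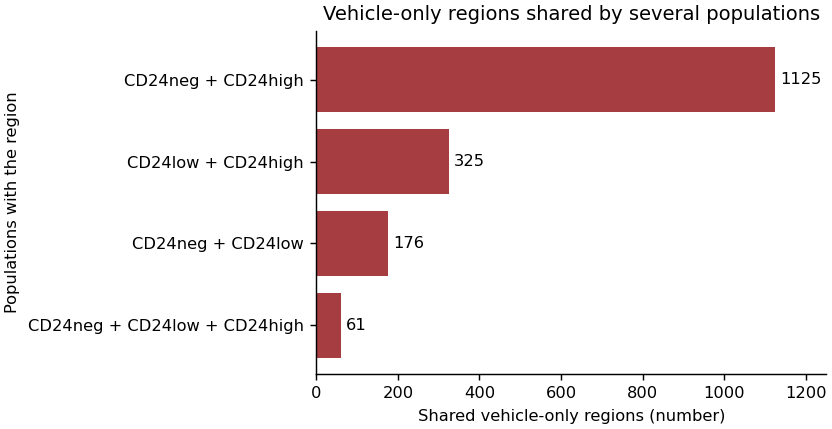
Number of shared vehicle-only regions (x axis) by the populations in which they were vehicle-only (rows). The bar of CD24neg and CD24high, 1125, is longer than the bars of 325, 176 and 61 together.

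Read as shares of each set, overlaps were modest. Of the vehicle-only regions of CD24neg, 15.0% overlapped one of CD24high, and of those of CD24high 10.2% overlapped one of CD24neg. CD24low gave the smaller set, and 16.5% of its vehicle-only regions overlapped one of CD24high, which is 3.20% of the CD24high set. Between CD24neg and CD24low the shares were 2.93% and 10.3%. Overlaps also occurred between opposite classes. Of CD24neg vehicle-only regions 7.06% overlapped a CD24low G9ai-only region, and of CD24low G9ai-only regions 13.7% overlapped a CD24high vehicle-only region. The reverse set, G9ai-only in several populations and vehicle-only in none, numbered 695 regions.

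The third population was not used when a pair was formed, and the counts here include regions that the rule then dropped for a G9ai-only overlap. They describe how the pair's direction carried over. Among 1312 regions vehicle-only in CD24neg and CD24high, 1125 (85.7%) had no listed peak in CD24low, 124 were G9ai-only there and 62 vehicle-only. The vehicle-only share of those with a direction was 33.3% (Wilson 95% interval 27.0% to 40.4%), beside 25.8% of all G9ai-only and vehicle-only regions of CD24low. Among 412 regions vehicle-only in CD24low and CD24high, 25 were G9ai-only and 62 vehicle-only in CD24neg, a vehicle-only share of 71.3% (61.0% to 79.7%), beside 68.6% of all such regions there. Among 258 regions vehicle-only in CD24neg and CD24low, 19 were G9ai-only and 61 vehicle-only in CD24high, a share of 76.3% (65.9% to 84.2%), beside 82.8%. The interval held the general share for CD24neg and CD24high, and lay above it for CD24low. These intervals cover counting error only, regions are not replicates of mice, and the replicate 3 vehicle lists share a library code. No difference from the general share was tested.

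**Figure D2:**
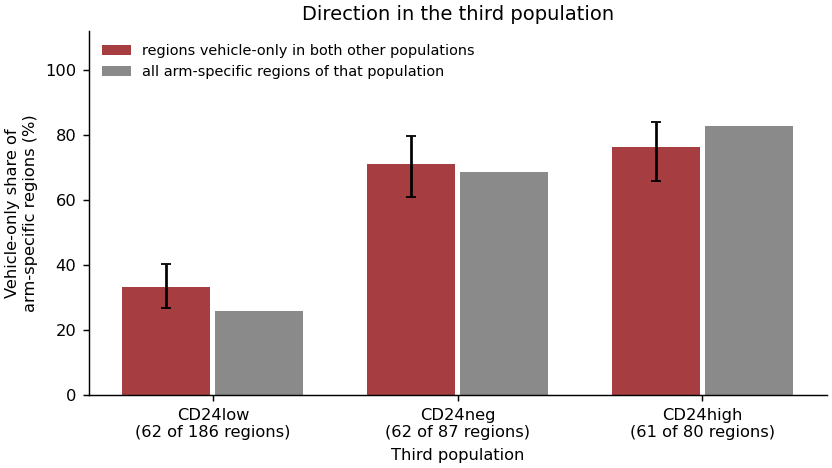
Vehicle-only share, in percent, of regions with a direction in the third population, for regions vehicle-only in both others (red, Wilson 95% intervals) and for all G9ai-only and vehicle-only regions of that population (grey). The red shares of 33.3%, 71.3% and 76.3% follow the grey ones of 25.8%, 68.6% and 82.8%.

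The overlap rule removed 171 regions that touched a G9ai-only region, most of them the 124 that were G9ai-only in CD24low. Of the members kept, 4 touched a peak of a G9ai list without meeting the G9ai-only definition. Those in Cul3, a ubiquitin ligase scaffold gene, and Cabin1, a calcineurin inhibitor gene, touched CD24neg G9ai peaks. The one in Igf2r, the receptor gene for insulin-like growth factor 2, touched a peak of CD24low G9ai replicate 2. The one in Ttc34 touched peaks of both CD24high G9ai lists. All other members had no peak in any of the 6 G9ai lists.

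The shared regions coincided closely in position. The overlap between populations had a median of 111 bp, with a smallest value of 11 bp and a largest of 427 bp, and its median was 100% of the shorter region. In 1670 members (99.0%) it was at least 50% of the shorter region. Region centres of different populations lay a median of 14.5 bp apart, beside 20.5 bp between the peaks of the CD24low vehicle replicates. Just outside the rule, 1 pair of neighbouring vehicle-only regions of different populations lay 0 to 10 bp apart, and 35 pairs lay within 100 bp.

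Peaks inside members were narrower than other peaks of their lists and of middle rank, while the merged member regions had a median width of 166 bp, beside 150 bp for regions vehicle-only in 1 population. Scores have no stated scale, so each was turned into its percentile within its own list, where the peak of highest score is at 100. Peaks in members had a median width of 130 bp in CD24neg vehicle replicate 3, beside 144 bp for the other peaks of that list. The pairs were 118 and 132 bp in CD24low vehicle replicate 2, 123 and 138 bp in its replicate 3, and 135 and 152 bp in CD24high vehicle replicate 3. Peaks in members were thus narrower in all 4 vehicle lists, by less than the spread between quartiles. Their median score percentiles were 49.8, 51.0, 49.3 and 49.2 in the same order, and 9.77% to 10.8% of their peaks stood in the top 10% of a list.

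**Figure D3:**
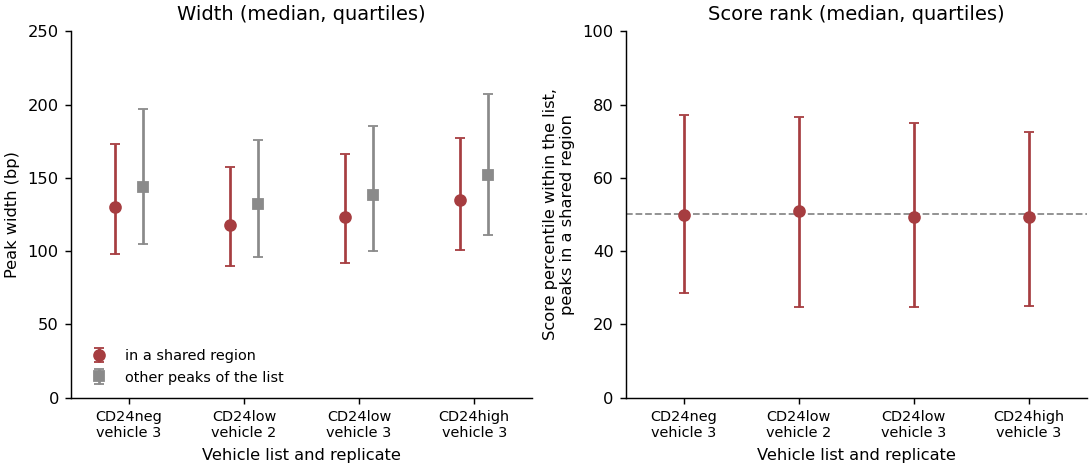
Left, peak width in bp in the 4 vehicle lists for peaks in shared regions (red) and other peaks (grey). Right, score percentile within the list for peaks in shared regions, with the dashed line at the list's middle. Points are medians and bars run between the quartiles, and the red widths of 118 to 135 bp sit below the grey ones of 132 to 152 bp.

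A member's rank in one list said little of its rank in another. Spearman's rank correlation over members was 0.19 between CD24neg and CD24high vehicle replicate 3 (n = 1188 members with a peak in both lists), 0.24 between CD24low and CD24high replicate 3 (n = 387) and 0.12 between CD24neg and CD24low replicate 3 (n = 238). With CD24low replicate 2, whose code differs, it was 0.09 to CD24low replicate 3 (n = 562), 0.03 to CD24high (n = 387) and 0.07 to CD24neg (n = 238). Over all overlapping peaks of CD24low vehicle replicates 2 and 3, in members or not, it was 0.14 (n = 2527). Between these replicates low rank agreement was thus not particular to members. These are descriptions across regions of shared libraries.

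For members vehicle-only in all 3 populations, absence from the G9ai lists follows from the rule and is not a result. The vehicle scores of those named here spanned the ranks. Trim11, a ubiquitin ligase gene, stood first by mean percentile. Its region (chr11:58979768-58979952, inside the gene) scored 167 in CD24neg replicate 3, 77 and 184 in CD24low replicates 2 and 3, and 232 in CD24high replicate 3, at percentiles 91.9, 64.3, 98.4 and 95.1. It was high in 3 lists and nearer the middle in CD24low replicate 2. Kdm2a, which encodes a histone H3 lysine 36 demethylase that binds CpG islands, followed with scores of 111, 113, 157 and 201 in the same lists (percentiles 67.6, 90.9, 96.1 and 91.3) at chr19:4338345-4338448. Ctc1, a telomere maintenance gene, had its region 295 bp inside a gene end, at percentiles 90.2, 80.1, 82.0 and 76.8. It varied least of these among the lists.

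Por, which supplies electrons to cytochromes P450 and is high in club cells, held a region at chr5:135710947-135711165 with scores of 152, 79, 75 and 196 (percentiles 87.9, 66.6, 50.5 and 90.6). Cyp27b1, the enzyme that activates vitamin D, had percentiles of 95.5, 12.5, 74.0 and 34.4, so its region was near the top of one list and low in another. Polr2a, which encodes the catalytic subunit of RNA polymerase II, held one 287 bp inside a gene end at percentiles 24.0, 85.8, 61.6 and 73.8. The proteasome subunit genes Psmd1 and Psmd11 each held one, at 69.3 and 49.9 in mean percentile. The other genes of the 20 highest members of this class included Lrrc36, Svil, Cep70, a centrosomal gene, the neighbours Pex13, of peroxisomal import, and Pus10, a pseudouridine synthase, Tbc1d5, Exoc3l4, Chd6, a chromatin remodeller, Kctd1, the kinase genes Snrk and Dgkg, and Srsf4 and Zdhhc15, whose promoters are printed above.

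Of members of CD24neg and CD24high alone, Rem2 ranked highest, at chr14:54475973-54476357 across the gene's start. It scored 319 in the CD24neg vehicle list and 541 in the CD24high vehicle list, at percentiles 99.5 and 99.7, with no peak in a G9ai list. Myh9, the heavy chain of a non-muscle myosin, followed at chr15:77800599-77800858 with scores of 270 and 257. Of the next, leaving out Uty and Eif2s3y, which are described with the Y chromosome, Nisch had 221 and 267 and Ppargc1a, the coactivator of mitochondrial genes, 202 and 293, both inside their genes. Arrdc3, an arrestin-family gene, had 215 and 238, and a region between the neighbours Rhbdl1, a rhomboid protease gene, and Stub1, a ubiquitin ligase gene, had 180 and 319. Each of these stood above percentile 90 in both lists.

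Of members of CD24low and CD24high, Hacd3 ranked highest, at chr9:65021602-65021948, with scores of 167 and 353 in CD24low replicates 2 and 3 and 420 in CD24high replicate 3 (percentiles 98.7, 99.9 and 99.5). All 3 lists placed it near the top. The region shared by Pradc1 and the chaperonin gene Cct7 scored 177, 147 and 289. Aida held the highest CD24high score among these, 767, with 124 and 99 in CD24low. The others were Nr4a2, a nuclear receptor gene induced by many stimuli, Samd10, Zc3h12a, an RNase gene that limits inflammatory transcripts, Fip1l1, of mRNA polyadenylation, and Ppargc1b, a relative of Ppargc1a.

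Of members of CD24neg and CD24low, Ly6g6c, a member of the Ly6 family to which Sca-1 also belongs, ranked highest. It scored 310 in CD24neg replicate 3 and 155 and 105 in CD24low replicates 2 and 3. Pfn2 followed with 201, 90 and 156 at chr3:57847453-57848199. The others were Rfx1, a transcription factor gene, Thumpd1, Ergic1, Nedd9, a scaffold of focal adhesions, the neighbours G6pdx and Ikbkg, which share a promoter region on X, and Eya2, a transcriptional coactivator gene. The G6pdx and Ikbkg region crossed a gene end with scores of 153, 129 and 88.

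Outside genes and 1000 bp on either side of them lay 594 members, at a median of 14393 bp from the nearest gene end, with 63 over 100000 bp away. The highest was at chr5:66232471-66232756, with scores of 363 in the CD24neg vehicle list and 226 in the CD24high vehicle list. It was followed by chr1:182527969-182528240 with 171 and 287, chr5:92970543-92970721 with 172 and 268, chr1:31143487-31143791 with 196 and 211, and chr5:23851139-23851443 with 192 and 214. All 5 belonged to CD24neg and CD24high alone, and none had a peak in a G9ai list.

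Gene positions come from RefSeq spans of GRCm38.p6, which give no exons or introns. Members lay in or within 1000 bp of a protein-coding gene in 64.7% of cases (Wilson 95% interval 62.4% to 67.0%), beside 65.3% of regions vehicle-only in 1 population. Within 1000 bp of a gene end lay 329 members, or 19.5% (17.7% to 21.5%), beside 15.1% of regions vehicle-only in 1 population, 22.6% of those G9ai-only in several and 17.8% of those G9ai-only in 1. Of all members, 13.2% lay near a 5′ end and 3.32% near a 3′ end of a gene of known strand, beside 9.82% and 2.57% of regions vehicle-only in 1 population.

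Within populations the difference in gene-end share was seen in CD24neg and CD24high. In CD24neg it was 18.8% of vehicle-only regions in members (16.8% to 21.0%) and 14.6% of the other vehicle-only regions (13.8% to 15.4%). In CD24high it was 18.8% (16.9% to 20.8%) and 14.0% (13.3% to 14.6%). In CD24low it was 23.0% (19.7% to 26.6%) and 25.1% (23.2% to 27.1%), the other way and with intervals that overlap. Regions are not replicates of mice, so the intervals describe these lists only.

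**Figure D4:**
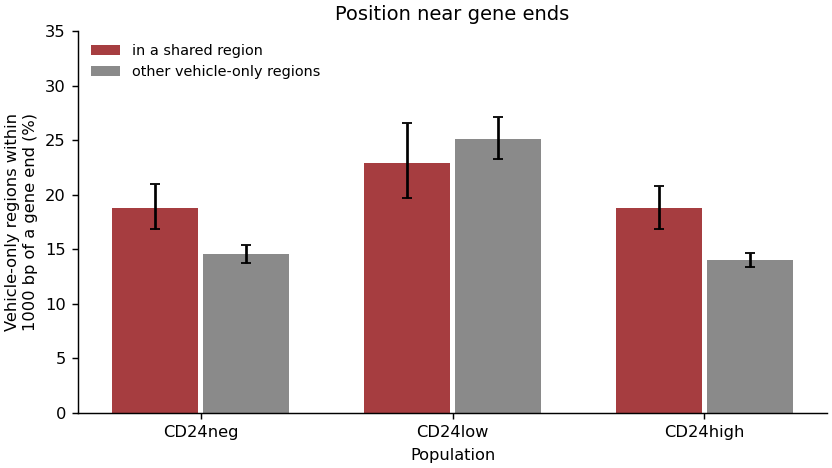
Share of vehicle-only regions within 1000 bp of a protein-coding gene end, in percent, by population, for those in shared regions (red) and the others (grey), with Wilson 95% intervals. Red stands above grey in CD24neg (18.8% and 14.6%) and CD24high (18.8% and 14.0%) and below it in CD24low (23.0% and 25.1%).

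By class, 17.8% of members of CD24neg and CD24high lay near a gene end, 21.2% of those of CD24low and CD24high, 25.6% of those of CD24neg and CD24low and 24.6% of those of all 3. Members that overlapped a promoter window numbered 73, 29, 26 and 6 in the same order, or 6.49%, 8.92%, 14.8% and 9.84%.

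In all, 134 members (7.94%) overlapped 152 promoter windows of 147 genes, and 99 members covered a start site, and a window was overlapped by 6.19% of regions vehicle-only in 1 population, 13.1% of those G9ai-only in several and 8.27% of those G9ai-only in 1. These windows had a median GC content of 58.8% and a median observed over expected CpG ratio of 0.749. Windows touched by regions vehicle-only in 1 population had 58.7% and 0.626, and all 32817 windows 52.7% and 0.383. The printed windows ran from a GC content of 42.3% at Uty to 77.7% at Pfn2, and Rem2 and Zdhhc15 had CpG ratios of 0.228 and 0.185, while the other 10 had 0.593 or more.

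Short motifs were searched on both strands. The letters AGNGGGC, the core of the CTCF motif, stood in 38.8% of member windows and 25.8% of all windows. GGGCGGG, bound by SP and KLF factors and able to share letters with the CTCF core, stood in 40.1% and 25.6%, but also in 39.1% of windows touched by regions vehicle-only in 1 population, where the CTCF core stood in 34.4%. In windows of regions G9ai-only in several populations the CTCF core stood in 46.1%, more often than in member windows, and GGGCGGG in 39.1%. These GC-rich letters were commoner in every class of listed region than in all windows. TGANTCA (AP-1) stood in 5.26% of member windows and 7.81% of all windows, CCGGAAG (ETS) in 7.24% and 8.86%, GGAATG (TEAD) in 11.2% and 14.7%, and CAGCTG (an E-box) in 11.2% and 16.3%. TGTTTAC (FOX) stood in 2.63% and 3.65%, CACTTGA (NKX2-1) in 1.97% and 3.06%, GTTGCCA (RFX) in 3.95% and 4.38%, GCGCATG (NRF1) in 3.29% and 3.90%, and ACCGGTT (GRHL) in 0% and 1.01%. A match in a window is a description of its letters and not a bound site. No member overlapped any of 1005 miRNA hairpins.

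Members were spread over the genome. On autosomes they made up 5.78% (chromosome 16) to 9.51% (chromosome 17) of the vehicle-only regions, and on X 8.57% (36 members). The median distance between neighbours was 574329 bp. Only 37 neighbouring pairs lay within 10000 bp and 9 within 1000 bp, the closest 141 bp apart. There were 3 runs of 3 members, all of CD24neg and CD24high. They lay at the histone gene H2ac10 (chr13:23517631-23533890), at Alg5 and Smad9 (chr3:54745926-54764646), and at Usp9x, a deubiquitinase gene (chrX:13070907-13072867).

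The Y chromosome stood apart with 4 members of 6 vehicle-only regions (66.7%, Wilson 95% interval 30.0% to 90.3%). All 4 lay at or within 196 bp of a gene start. Uty (chrY:1245688-1245901) scored 296 in CD24neg vehicle replicate 3 and 237 in CD24high vehicle replicate 3, at percentiles 99.4 and 95.5. Ddx3y (chrY:1286411-1286721) scored 188 and 234, at 95.1 and 95.3. Eif2s3y held a region at chrY:1010228-1010365 with 222 and 254, at 97.8 and 96.7, and another at chrY:1010509-1010613 with 86 and 115, at 43.5 and 60.4.

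None of the 6 G9ai lists and neither CD24low vehicle list held a peak at these 3 genes. Peaks on Y numbered 0 or 1 in each G9ai list, against 5 in each of the CD24neg and CD24high vehicle lists and 0 in each CD24low vehicle list. CD24low vehicle replicate 3 carried the same library code as the CD24neg and CD24high vehicle lists. At Xist, the RNA gene of the inactive X in females, CD24high had a G9ai-only region (chrX:103477584-103477771, scores 84 and 147) and CD24low a vehicle-only one (chrX:103477583-103477761, scores 59 and 55), while CD24neg had none. The X held 1.85% to 2.33% of the peaks of the G9ai lists and 1.72% to 2.24% of those of the vehicle lists. The sex of the mice is not in the labels, and its part in the other members was not tested. Without X and Y, 1647 members remained, with 18.6% near a gene end.

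**Figure D5:**
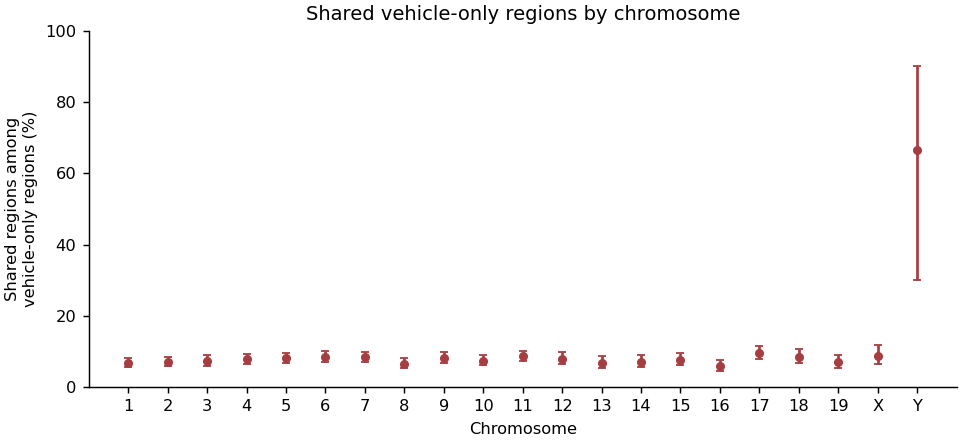
Shared vehicle-only regions as a percentage of all vehicle-only regions (y axis) on each chromosome (x axis), with Wilson 95% intervals. The autosomes and X lie between 5.78% and 9.51%, and Y, with 4 of 6 regions, lies at 66.7% with a wide interval.

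The members were linked to 1076 of 21887 protein-coding genes (4.92%). Of these, 1006 held 1 member, 58 held 2 and 12 held 3 or more. Itpr1, a calcium release channel gene, and Arhgap26, which encodes a GTPase-activating protein, held 4 each. Gse1, Anks1, Usp9x, Dip2b, Mical2, Frmd4b, Igf2r, Kctd1, Ndufs4 and Sash1 held 3 each. In Itpr1, 3 members belonged to CD24neg and CD24high and 1 to all 3 populations, with percentiles from 56.8 to 89.4 in CD24neg and from 10.4 to 27.5 in CD24high. In Mical2, an actin-oxidising enzyme gene, the 3 members belonged to 3 different pairs of populations.

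Long genes held members more often. The share of genes with a member was 1.28%, 3.44%, 4.37% and 10.6% over 4 equal groups of genes ordered from shortest to longest. Genes with a member had a median length of 50426.5 bp, against 35933 bp for genes with a vehicle-only region and no member and 17169 bp for all genes. Of the genes with a member, 560 (52.0%) also held a G9ai-only region elsewhere in the gene, beside 47.7% of the 6664 genes with a vehicle-only region and no member and 25.4% of all genes. The share in genes with a member was thus near that in genes with a vehicle-only region and no member, whose median length was shorter.

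Counts over 20 gene lists, with 424 distinct genes, placed members in 45 of these genes. All the lists were written with earlier results of these data known. No list was tested against other genes, so the shares given for lists are descriptions. The list of AP-1, KLF and immediate early genes, many of which respond within minutes to growth signals, had members in 5 of 22, Ier2, Btg2, Fosb, Myc and Egr2 (22.7%, beside 4.92% of all genes), and a median gene length of 5180 bp. Of these 5 genes, 4 had a member within 1000 bp of a gene end. None of them held a G9ai-only region, and only 6 of all 22 genes of the list did. Ier2 scored 123 in CD24neg replicate 3 and 219 in CD24high replicate 3, and its region lay 226 bp inside a gene end. Btg2 scored 119 and 132 in those lists, 734 bp outside. Fosb scored 132 and 83 in CD24low replicates 2 and 3 and 107 in CD24high, 5 bp inside its end, and Myc 64 in CD24neg and 116 in CD24high, 758 bp outside.

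Chromatin modifier genes, of long median length (79237 bp), had members in 6 of 32 (18.8%). The share was 4.92% of all genes and 10.6% of the longest of the 4 length groups. Among the 6 were Arid1a and Arid1b, subunits of the BAF remodelling complex, the deacetylase gene Hdac7, Jarid2, a partner of Polycomb complex PRC2, and Dot1l, the histone H3 lysine 79 methyltransferase gene. All 6 also held G9ai-only regions, as did 23 of all 32 genes of this list. The Hdac7 region lay 402 bp outside the gene with scores of 77 and 108 in CD24low replicates 2 and 3 and 66 in CD24high. The list of H3K9 and DNA methylation factors, of median length 46190 bp, had members in 2 of 30 (6.67%), near the share of all genes. These genes were Atf7ip, a partner of the H3K9 methyltransferase SETDB1, with 95 in CD24neg and 196 in CD24high, and Kdm4b, an H3K9 demethylase gene, with 120 and 76. Ehmt2 and Ehmt1 held no member. Ehmt2 had 2 vehicle-only regions, in CD24low alone, and Ehmt1 had 1, in CD24neg alone.

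The pan-epithelial list had members in 5 of 28 genes (17.9%, beside 4.92% of all genes), namely Cdh1, Tead1, Ovol2, Foxa1 and Tjp1. Cdh1, which encodes E-cadherin, had its region inside the gene at chr8:106617227-106617676 with 243 in CD24neg and 216 in CD24high, both above percentile 93. It also held 2 G9ai-only regions in each population. Ovol2, a repressor of mesenchymal genes, had its region across a gene end with 44 and 129 in CD24low replicates 2 and 3 and 103 in CD24high, at percentiles from 5.28 to 90.9. The region near Foxa1, a forkhead factor gene, lay 459 bp outside it and inside its neighbour Ttc6.

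Alveolar type 1 genes had members in 3 of 18, Limch1, Hopx and Emp2, and alveolar type 2 genes in 0 of 18, beside 4.92% of all genes. Of these type 2 genes, 10 held a vehicle-only region of some population. Hopx, a regulator gene typical of type 1 cells, scored 64 and 65 in CD24low replicates 2 and 3 and 64 in CD24high, at percentiles of 44.7, 35.2 and 18.6. Airway lists had 1 gene each, Por of 20 for club and goblet cells, the ciliary dynein gene Dnah5 of 20 for multiciliated cells and Icam1 of 12 for basal cells. Dnah5 scored 57 in CD24neg and 105 in CD24high. Lists of other cell types had none, with 0 of 15 endothelial, 0 of 16 leukocyte and 0 of 15 mesenchymal genes, beside 4.92% of all genes. In the same order, 9, 5 and 7 of these genes held a vehicle-only region of some population. At that share, lists of this length do not set these cell types apart.

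The 5 sort markers held no member. Epcam, Ly6a, which encodes Sca-1, and Cd24a had no region of either class. Pecam1 (CD31) had 4 G9ai-only regions in CD24low and 1 vehicle-only region each in CD24neg and CD24high. Ptprc (CD45) had 1 vehicle-only region in CD24neg. Since a site open in both arms can be missing from every list, these counts do not check the identity of the cells.

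Signalling lists had members in a few genes each. The Hippo and actin list had 5 of 30, Myh9, Tead1, Lats1, Limch1 and Wwtr1. Tead1, the DNA-binding partner of YAP, scored 101 and 176 in CD24low replicates 2 and 3 and 127 in CD24high, at percentiles 84.7, 98.0 and 67.2. Lats1, a kinase gene that restrains YAP, scored 127 in CD24neg and 147 in CD24high. The list of EGF, FGF and other receptor kinases had 4 of 30, Grb2, Spry4, Met and Igf1r. Grb2, the adaptor that links receptors to Ras, scored 233 and 211 in CD24neg and CD24high, at percentiles 98.3 and 92.7.

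The Wnt list had 3 of 28, the coreceptor genes Lrp5 and Lrp6 and Apc, of the beta-catenin destruction complex. The Notch list had 3 of 24, the receptor genes Notch2 and Notch3 and the coactivator gene Maml2. All of these also held G9ai-only regions, as did 10 of all 24 genes of this list. The Notch3 region lay 432 bp inside a gene end with 61 and 76 in CD24low replicates 2 and 3 and 163 in CD24high. The TGF-beta and BMP list had 3 of 27, the receptor gene Acvr1, the effector gene Smad3 and the inhibitor gene Smad7. Cell cycle genes had 3 of 21, the cyclin genes Ccnd1 and Ccnd2 and the kinase gene Cdk6. Ccnd1 had its region across a gene end with 105 and 123 in CD24low replicates 2 and 3 and 141 in CD24high. Housekeeping genes had 2 of 20, Polr2a and Pgk1. Beside these counts, 4.92% of all genes and 10.6% of the longest of the 4 length groups held a member. Median gene length was 10493 bp in the cell cycle list, 23134 bp in the Notch list and 5637.5 bp in the housekeeping list. These medians are below the shortest gene of the longest group, at 44341 bp. Whether the lists differ from other genes of like length was not tested.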

How the data were processed

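ATAC-seq lists of 10 libraries were used, and groups came from the sample labels. FastQC, Bowtie2, MACS2 and the build mm10 are named in the submitters' processing notes. For versions, settings, read shifting, duplicate removal, the peak threshold and the choice of listed peaks, nothing is given in the sources used here. Per the file contents, the authors deposited peak intervals, each named and with a score of unstated scale, turned here into a percentile within its list. Peak names carry a library code that populations share. Depth is unknown, as no read counts were used here.

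Repeated lines (47 to 472 per list) were dropped, peaks of a population were merged at 1 bp of overlap, and shared regions were formed as the report states. The members and gene lists were chosen with earlier results of these data known. Genes were linked by RefSeq span plus 1000 bp, and promoter windows cover 17492 protein-coding genes and no gene of chromosome 18. Intervals are Wilson or exact binomial at 95% and cover counting error only. No test between arms was run, since 2 of 3 populations had a single vehicle list. The region rule was tested on simulated lists. Named genes were those of the 20 highest members of all 3 populations and the 8 highest of each pair by mean percentile, the 8 genes with most members, up to 4 per gene list, Ehmt1, Ehmt2, the sort markers and the 5 highest members without a gene. Gm, Rik and Olfr symbols were left out, and not every gene that meets the rule is reported here. Frmd4b, Ndufs4, Sash1, Cul3, Cabin1, Ttc34, Kat2a, Pcif1, Gripap1, Ddx3y, Xist, the fifth or later genes of a list (Egr2, Tjp1, Wwtr1, Dot1l and Arid1a) and the genes at runs of members were named outside this rule, after their values were seen. Alternatives covered score cuts, overlap, merging, gene windows and left-out replicates. Python 3.11.15, pandas 2.3.3, numpy 2.4.6, scipy 1.17.1 and matplotlib 3.10.9 were used.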

Additional observations from a re-analysis of the deposited data

Results flagged for a closer look

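Some regions were vehicle-only in a pair of populations and G9ai-only in the remaining one, so that the peak lists of the pair pointed one way and those of the third the other. The vehicle side of CD24neg and of CD24high was a single list each, so agreement between replicates is not shown there. They numbered 124 for CD24neg and CD24high against CD24low, 25 for CD24low and CD24high against CD24neg, and 19 for CD24neg and CD24low against CD24high. The difference between populations was not tested, and these regions are not among the members.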

How the results depend on the processing

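The number of members depended on the score cut. In the higher-scoring 50% of each list there were 456 members, 5 in all 3 populations, with 23.0% near a gene end, 68.4% in gene windows, 323 genes and 16 list genes. In the highest 25% these were 121, 2, 22.3%, 70.2%, 90 and 5. With every list cut to the 2552 peaks of highest score, there were 284 members, 7 in all 3 populations, 68.7% in gene windows, 206 genes and 7 list genes. Gene spans alone held 60.4% of members and spans plus 5000 bp 72.0%. Counting only 1000 bp around gene ends gave 362 genes and 15 list genes. Members with a CD24low region, an alternative chosen after seeing the data, numbered 562, with 23.0% near a gene end, 398 genes and 18 list genes. Leaving out 1 G9ai list or 1 CD24low vehicle list gave 1685 to 1688 members, 61 in all 3 populations, 19.5% near a gene end, 64.7% to 64.8% in gene windows, 1074 to 1077 genes and 44 to 45 list genes. The CD24neg and CD24high vehicle lists, each the only one of its group, were not left out. The 1125 members of CD24neg and CD24high alone rest on those lists, so their dependence on a replicate was not examined. Stricter overlap (50% of the longer region) left 1482 members. Of 95 named genes, 65 kept a member in the higher-scoring 50%, 32 in the highest 25%, and 94 or 95 without 1 G9ai list or 1 CD24low vehicle list. The cause of these differences beyond fewer peaks was not tested. No paired analysis was possible because the results are counts and shares of regions that come from no test.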
